A study of Mus musculus with 6 samples.

Results

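The genes that encode collagens, laminins and other proteins of the basement membrane were followed in RNA-seq of mouse small intestine at postnatal day 14. They were taken by symbol, namely every collagen chain gene, every laminin chain gene, both nidogens (Nid1 and Nid2), Hspg2, Agrn and Fn1, which gave 60 genes of the 24452 symbols measured. Of these, 11 encode fibrillar collagens, 23 encode parts of the basement membrane and 26 are other collagens and fibronectin. There were 3 libraries labelled Erk1/2 -/- (knockout) and 3 labelled wild type, all from C57BL/6 mice at the same age. The labels name no Cre driver or allele, and tissue was taken as whole small intestine, so each value mixes epithelium with stroma, muscle and vessels. The labels speak of triplicates without saying that each came from its own animal. The p-values therefore reflect how far these libraries spread, which may be technical in part.

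Collagens are trimers. Fibrillar collagens form the tensile fibres of the gut wall and are made mainly by fibroblasts and smooth muscle. The basement membrane is the thin sheet under the epithelium and around vessels and muscle fibres, in which networks of laminin and of type IV collagen are joined by nidogens and heparan sulfate proteoglycans. In the intestine both epithelium and mesenchyme contribute its chains, and the laminin chains differ between crypt and villus.

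Values are normalised counts, meaning that the reads of each gene were scaled by 1 factor in each library and then rounded. Their sums ran from 14825845 to 17153570 in the libraries labelled knockout and from 13641468 to 14094100 in wild type, and low values allow an estimate of the reads counted, 12.5M to 16.3M per library. Mapk3, which encodes ERK1, had 3363, 2280 and 2734 normalised counts in labelled knockout 1 to 3, against 3142, 2788 and 2004 in wild type 1 to 3. The groups overlapped (log2 fold change 0.09 ± 0.22 SE, limma adjusted p = 0.819), so this transcript was not lower where the labels say knockout, and every direction below is that of the libraries labelled knockout. The correlation of log2 values across genes was 0.980 between labelled knockout 2 and 3 and 0.988 between wild type 1 and 2. Labelled knockout 1 and wild type 3 stood apart, at 0.933 to 0.944 and 0.948 to 0.960 with their own groups. Xist was at 2, 5924 and 4596 in labelled knockout 1 to 3, against 19, 19 and 6551 in wild type 1 to 3, and Ddx3y, on the Y chromosome, was at 177, 0 and 0 in labelled knockout, against 303, 428 and 0 in wild type. Both groups thus held both sexes, with the male pattern in labelled knockout 1 and wild type 1 and 2. Leaving out labelled knockout 1 and wild type 3 aligns sex fully with genotype.

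Chains of several matrix families differed between the groups, while the genes highest per kilobase of exon (Col3a1, Col1a1, Col1a2 and Col4a1) did not pass the test. All 4 minor chains of type IV collagen, the 3 type VI chains encoded side by side on chromosome 9, the laminin chain Lamc3 and the nidogen Nid2 fell in the libraries labelled knockout. The laminin chain Lama1 rose. In limma on log2(normalised count + 1), adjusted over all 14686 genes tested, 15 of 55 members tested had an adjusted p under 0.05 (27.3%, against 8.79% of all genes). Of these, 13 fell (23.6% of the members, against 3.94% of all genes) and 2 rose (background 4.85%). Every library of one group lay beyond the other for 23 members that were lower and 3 that were higher (backgrounds 17.8% and 19.8%). Over all genes 579 fell and 712 rose. That split was 983 and 414 with scaling by library totals and 681 and 546 with upper quartile scaling, while the members' calls were 13 and 2 under both. The median log2 fold change was -0.36 over the members and -0.01 over all genes tested. The filter asked for at least 10 normalised counts in at least 3 libraries. Of the 15, Col4a4 and Col6a6 passed it only through wild type, where they are high, so they had to differ. With every gene above 0 in any library tested, 12 of all 60 members fell (background 2.05%) and 2 rose (background 2.77%).

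**Figure D1:**
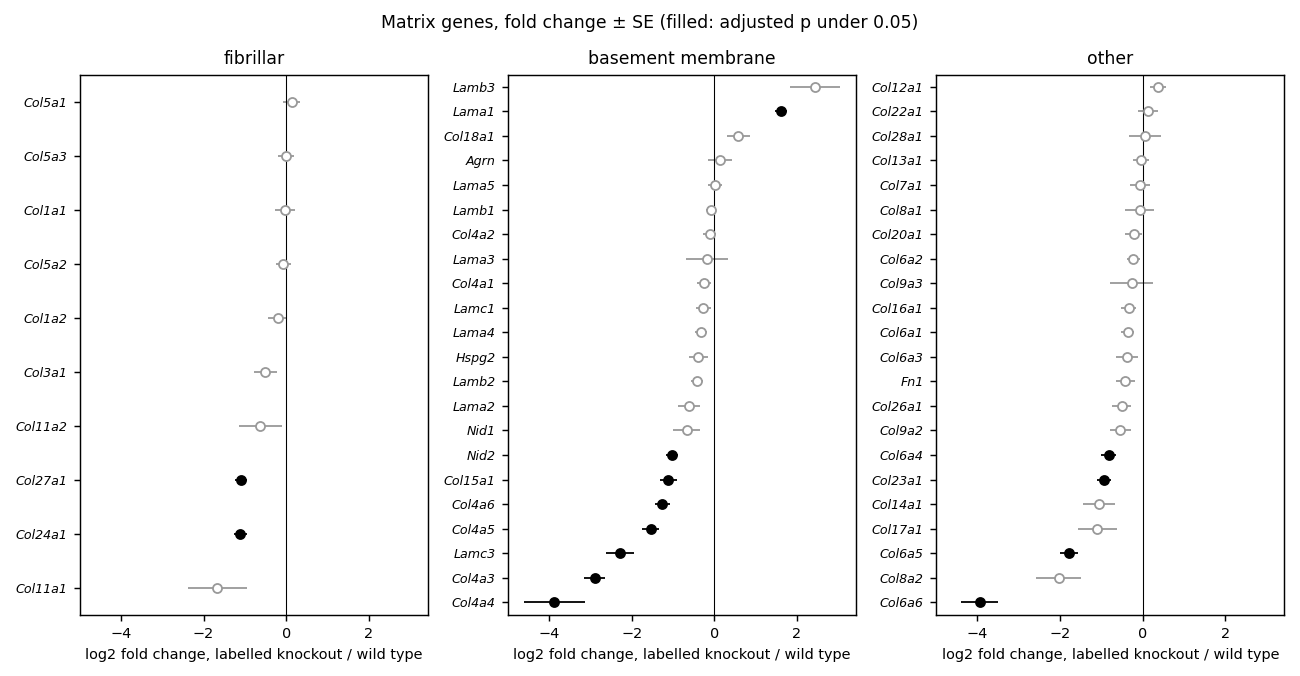
Log2 fold change (horizontal axis, labelled knockout over wild type) of members tested, by class, with bars of 1 SE and filled points for an adjusted p under 0.05. The filled points include 2 fibrillar collagens and 4 genes of the class of others, and the farthest to the left are Col6a6 and Col4a4.

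Labelled knockout 1 had the lowest value of its group in 32 of the 55 members and wild type 1 the highest of its group in 39. Single libraries also decided how many members, and how many of all genes, passed. Leaving out wild type 1 kept 2 of the 15 calls, leaving out wild type 2 kept 1 and leaving out wild type 3 kept 12. All 15 were kept when labelled knockout 1 was dropped, 12 when labelled knockout 2 was and 3 when labelled knockout 3 was. Over all genes the calls went from 1291 to 78, 48 and 409 without wild type 1, 2 and 3 in turn. They went to 3015, 654 and 64 without labelled knockout 1, 2 and 3. Without labelled knockout 1 a further 6 members passed, for 5 higher and 16 lower in all. With the sex of the library as a covariate, 12 of the 15 were called (lost were Col15a1, Col23a1 and Col6a4).

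Of 22 members with a mean of at least 1000 normalised counts, 3 fell (13.6%) and none rose. Of 33 tested members below that level, 10 fell (30.3%) and 2 rose. Among all genes tested, 1.53% of the 3064 above that level and 4.58% of the 11622 below it fell. Of the same genes, 269 of the 3064 and 443 of the 11622 rose. The 3 abundant genes that fell were Nid2, Col15a1 and Col6a4. Since reads scale with gene length, levels of different genes are compared per kilobase of exon. On that scale the members ran from Col3a1 at 2931 ± 947 in labelled knockout and 4035 ± 647 in wild type (normalised count per kb, SD, n = 3 each) to genes near 0. Col3a1, Col1a1, Col1a2 and Col4a1 were the 4 highest in both groups, in that order.

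**Figure D2:**
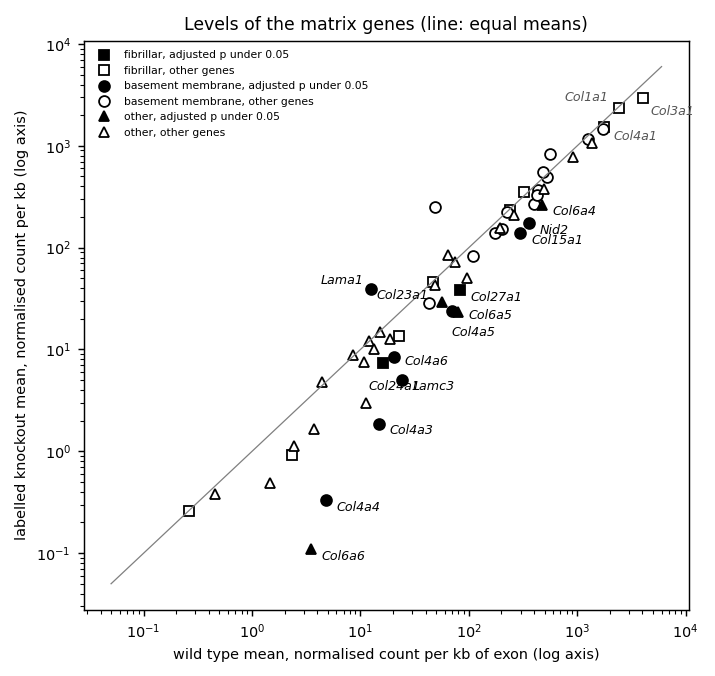
Mean level of members in the libraries labelled knockout (vertical axis) against wild type (horizontal axis), in normalised counts per kb of exon on log axes, with filled points for an adjusted p under 0.05 and a line of equal means. Col10a1, listed at 0 in wild type, is not drawn, and the most abundant genes, at the upper right, lie near the line.

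The main fibrillar collagens did not pass the test. Col3a1, the sole chain of type III collagen, had 10468, 20706 and 17744 normalised counts in labelled knockout 1 to 3, against 26603, 20507 and 20242 in wild type 1 to 3. Labelled knockout 1 was far below the others and the groups overlapped (log2 fold change -0.51, 95% interval -1.18 to 0.17, limma adjusted p = 0.269). Col1a1, the main chain of type I collagen, had 11143, 14962 and 15450 in labelled knockout, against 19135, 11627 and 12406 in wild type. Wild type 1 was the highest of the 6, and the log2 fold change was -0.03 (95% interval -0.62 to 0.55). Its partner Col1a2 had 6216, 9297 and 8995 in labelled knockout, against 11814, 7842 and 8585 in wild type, with an interval of -0.76 to 0.35. The ratio of Col1a1 to Col1a2 per kb was 1.54 ± 0.08 in labelled knockout and 1.37 ± 0.08 in wild type (SD, n = 3 each), with overlapping libraries. That of Col3a1 to Col1a1 was 1.00, 1.47 and 1.22 in labelled knockout 1 to 3, against 1.48, 1.88 and 1.74 in wild type 1 to 3. These groups did not overlap, by a margin that is small between labelled knockout 2 and wild type 1. Such separation was not particular to this ratio. Those of Col4a1 to Col4a2, Col4a5 to Col4a6 and Col6a1 to Col6a2 were also lower in every labelled knockout library. That of Lamb1 to Lamc1 overlapped. Col5a1, Col5a2 and Col5a3, the type V chains that seed and regulate type I fibrils, had log2 fold changes between -0.07 and 0.13 and did not pass.

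Both fibrillar collagens that fell were of types XXIV and XXVII. Col27a1, a cartilage fibril collagen that is also made in other tissues, had 271, 335 and 274 normalised counts in labelled knockout, against 676, 613 and 596 in wild type. Every labelled knockout library was below every wild type library (log2 fold change -1.10 ± 0.15 SE, limma adjusted p = 0.0139). Col24a1 had 55, 51 and 51 in labelled knockout, against 107, 121 and 115 in wild type (-1.11 ± 0.16, limma adjusted p = 0.0181). Its libraries lay close together within each group. Neither call was kept without wild type 1, wild type 2 or labelled knockout 3, and that of Col24a1 was also lost without wild type 3. The limma adjusted p over all alternatives ran from 0.00506 to 0.101 for Col27a1 and from 0.00924 to 0.122 for Col24a1. Col11a1 and Col11a2, chains of the cartilage collagen type XI, were low, at means of 7.0 and 86.0 in labelled knockout and 18.0 and 142 in wild type, and did not pass. Col2a1, the main cartilage collagen, was at 1 or 2 in every library and was not tested.

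The chains of type IV collagen differed in their calls. Its common trimer of Col4a1 and Col4a2 chains is present in nearly all basement membranes, while trimers with the Col4a3, Col4a4, Col4a5 and Col4a6 chains are restricted to some tissues, and mutations in COL4A3, COL4A4 and COL4A5 cause Alport syndrome in humans. Each of the 6 genes is transcribed away from a partner. The start sites of Col4a3 and Col4a4 lie 71 bases apart on chromosome 1, those of Col4a5 and Col4a6 lie 1342 bases apart on the X chromosome, and the first exons of Col4a1 and Col4a2 overlap by 22 bases on chromosome 8, in RefSeq coordinates of GRCm38. The upstream stretches of the pairs that fell are given 5′ to 3′, ending at the start site of the first gene named or, for Col4a5, before its first annotated exon.
Col4a4 to Col4a3 (chr1:82586850-82586920, minus strand): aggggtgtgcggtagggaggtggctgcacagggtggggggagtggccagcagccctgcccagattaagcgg
Col4a6 (chrX:141474077-141474326, minus strand): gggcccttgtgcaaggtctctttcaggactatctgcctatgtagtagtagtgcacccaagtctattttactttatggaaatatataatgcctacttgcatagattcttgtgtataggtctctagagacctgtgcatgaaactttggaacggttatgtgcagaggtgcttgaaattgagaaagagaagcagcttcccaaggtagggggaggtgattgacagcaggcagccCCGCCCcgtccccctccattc
Col4a5 (chrX:141475169-141475384, plus strand): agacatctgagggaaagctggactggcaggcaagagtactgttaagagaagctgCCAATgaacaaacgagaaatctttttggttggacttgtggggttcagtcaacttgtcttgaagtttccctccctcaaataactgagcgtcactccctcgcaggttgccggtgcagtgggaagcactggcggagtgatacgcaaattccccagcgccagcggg
Capitals mark matches on either strand to a GC box (GGGCGG) or a CCAAT box (CCAAT), which did not overlap. The full 250 bases before the start of Col4a5 also held 1 GC box, which is not within the shorter stretch printed. The AP-1 motif (TGANTCA), the TATA box (TATAAA) and an ETS motif (CCGGAAG) were also searched. In the 250 bases before all 32851 start sites listed, the GC box was found in 32.7% and the CCAAT box in 33.8%. The AP-1 motif was found in 6.75%, the TATA box in 12.4% and the ETS motif in 6.91%. In the last 71 of those bases the shares were 20.7% for the GC box, 13.3% for the CCAAT box, 1.86% for AP-1, 4.41% for the TATA box and 3.81% for ETS. The 71 bases between Col4a4 and Col4a3 held none of the 5, which is a statement about these letters alone.

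Col4a3 had 18, 13 and 17 normalised counts in labelled knockout 1 to 3, against 122, 157 and 101 in wild type 1 to 3. No library came near the other group (log2 fold change -2.90 ± 0.25 SE, limma adjusted p = 0.006). Its neighbour Col4a4 had 0, 5 and 5 in labelled knockout, against 53, 59 and 34 in wild type (-3.87 ± 0.73, limma adjusted p = 0.0289), and with counts this low the fold depends on the pseudocount. Col4a5 had 130, 195 and 147 in labelled knockout, against 479, 507 and 382 in wild type (-1.54 ± 0.20, limma adjusted p = 0.0139). Col4a6 had 55, 64 and 48 in labelled knockout, against 133, 149 and 121 in wild type (-1.26 ± 0.19, limma adjusted p = 0.019). Col4a3, Col4a5 and Col4a6 had the groups apart, as had 17.8% of all genes tested in this direction. So had Col4a4, which passed the filter only through wild type and so had to be apart. Col4a5 and Col4a6 are X-linked, and with sex as a covariate their log2 fold changes were -1.54 and -1.23. Col4a3 is the sole member whose call was kept in each of the 6 fits without 1 library, where Col4a5 and Col4a6 lost theirs without wild type 1, wild type 2 or labelled knockout 3, and Col4a4 without wild type 3 as well. Over all alternatives the limma adjusted p reached 0.0446 for Col4a3, 0.146 for Col4a4, 0.0983 for Col4a5 and 0.121 for Col4a6.

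The chains of the common trimer were higher by an order of magnitude or more and did not pass. Col4a1 had 8461, 10344 and 9932 normalised counts in labelled knockout, against 13039, 11201 and 10016 in wild type (log2 fold change -0.25, 95% interval -0.65 to 0.15). Col4a2 had 6579, 7761 and 8159 in labelled knockout, against 9226, 7988 and 7189 in wild type (-0.12, 95% interval -0.51 to 0.28). The groups overlapped for both genes. Col4a3 lies on chromosome 1 from 82586921 to 82722059 on the plus strand, and 6.58% of its exon bases are shared with the exons of another annotated gene, so some of its reads could be from elsewhere, as also holds for Lamc3 (5.60%) and Col6a4 (3.92%). Col4a4 (chromosome 1, 82448423 to 82586849, minus strand), Col4a5 (X, 141475385 to 141689234, plus strand) and Col4a6 (X, 141165403 to 141474076, minus strand) share no exon bases with other genes in GENCODE vM21.

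**Figure D3:**
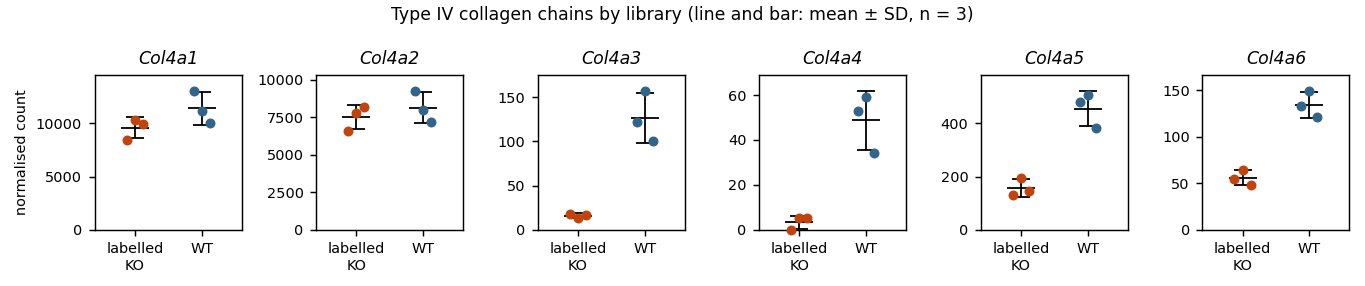
Normalised counts of the 6 type IV collagen chains by library (points), with the mean and SD of each group of 3 and axes that start at 0. The labelled knockout libraries of Col4a3, Col4a4, Col4a5 and Col4a6 all lie below wild type, at 0 to 195 against 34 to 507, while those of Col4a1 and Col4a2 overlap.

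Laminins, the trimers of an alpha, a beta and a gamma chain that build the first network of a basement membrane, moved in both directions. Lama1, an alpha chain of embryonic basement membranes that persists in the gut, had 423, 363 and 326 normalised counts in labelled knockout 1 to 3, against 116, 124 and 120 in wild type 1 to 3. It rose 3.09-fold in the means, with wild type libraries close together (log2 fold change 1.61 ± 0.15 SE, limma adjusted p = 0.00737). Lamb3, a beta chain of epithelial laminins, had 722, 953 and 2202 in labelled knockout, against 424, 235 and 94 in wild type. The groups were apart, yet the spread was wide in both and it did not pass (2.44 ± 0.61, limma adjusted p = 0.0541). Lama3, an alpha chain of epithelial laminins, had 1160, 654 and 869 in labelled knockout, against 527, 838 and 2172 in wild type, with overlapping groups and the highest value in wild type 3 (-0.18 ± 0.50, limma adjusted p = 0.829).

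Lamc3, a laminin gamma chain, had 17, 34 and 38 normalised counts in labelled knockout, against 172, 141 and 115 in wild type (-2.29 ± 0.34, limma adjusted p = 0.0181). The groups lay far apart. Lamc1, the gamma chain of most laminins, had 2108, 3318 and 2975 in labelled knockout, against 3369, 3268 and 3279 in wild type and did not pass. Lamb1, its usual beta partner, had 2966, 2795 and 2936 in labelled knockout, against 3167, 2961 and 3059 in wild type (95% interval -0.37 to 0.21). Lama5, the main alpha chain of adult epithelium, averaged 2574 ± 264 in labelled knockout and 2574 ± 404 in wild type (SD, n = 3 each), and the 95% interval of the log2 difference was -0.39 to 0.41. Lama2, the alpha chain of muscle, Lama4, that of vessels, and Lamb2 had the groups apart at -0.62, -0.32 and -0.41 but did not pass (limma adjusted p = 0.167, 0.178 and 0.117). Lama1 lost its call without wild type 2 (limma adjusted p = 0.0506). Lamc3 kept its call without wild type 3, labelled knockout 1 or labelled knockout 2 and lost it without any of the others, with a limma adjusted p of up to 0.109. Lamb3 passed without labelled knockout 1 and without both libraries that stood apart.

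**Figure D4:**
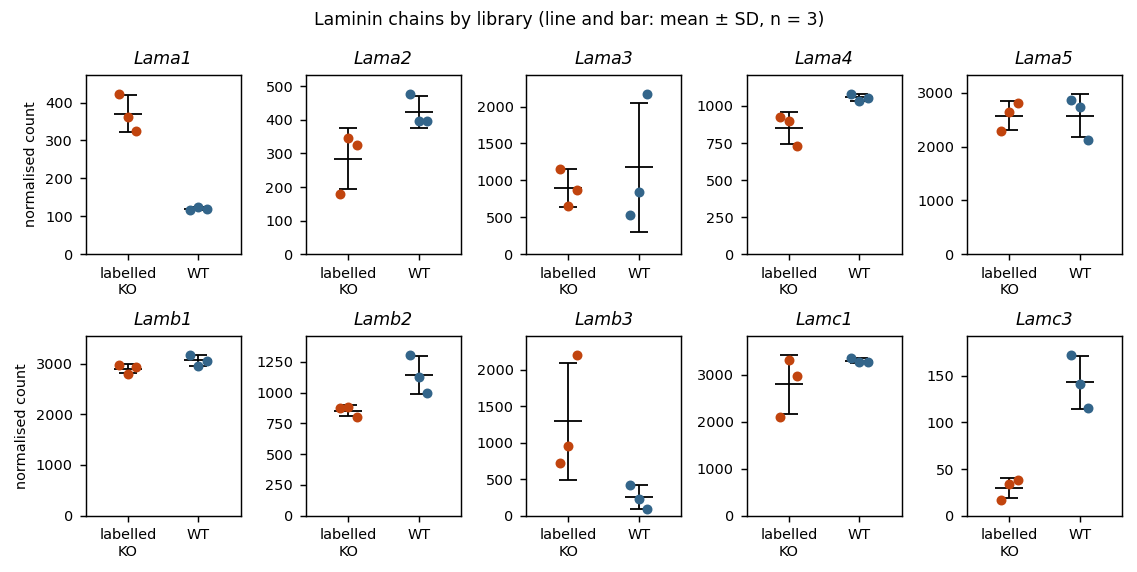
Normalised counts of laminin chains by library (points), with the mean and SD of each group of 3 and axes that start at 0. Lama1 and Lamb3 lie higher in every labelled knockout library, and Lamc3, Lama2, Lama4 and Lamb2 lower.

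Nidogens link the laminin and type IV networks. Nid2 had 830, 942 and 786 normalised counts in labelled knockout 1 to 3, against 1869, 1728 and 1613 in wild type 1 to 3. The lowest wild type value was well above the highest labelled knockout value (log2 fold change -1.03 ± 0.14 SE, limma adjusted p = 0.0139). Of its exon bases 8.96% are shared with the exons of another annotated gene. Nid1 had 913, 2195 and 1759 in labelled knockout, against 2775, 2626 and 1961 in wild type, which overlapped, and did not pass (-0.67 ± 0.33). Col15a1, a multiplexin collagen of vessel and muscle basement membranes, had 823, 1016 and 676 in labelled knockout, against 2050, 1835 and 1516 in wild type (-1.11 ± 0.20, limma adjusted p = 0.0253). Its groups were apart by a wide margin. Col18a1, the other multiplexin and the source of endostatin, had 7399, 5049 and 4465 in labelled knockout, against 4644, 4050 and 2660 in wild type (0.58 ± 0.28, limma adjusted p = 0.204). Among the proteoglycans, Hspg2 (perlecan) had means of 4666 ± 1023 in labelled knockout and 6091 ± 1172 in wild type, and Agrn (agrin) 4362 ± 1615 and 3766 ± 126 (SD, n = 3 each). Neither passed. The calls of Nid2 and Col15a1 were lost without wild type 1, wild type 2 or labelled knockout 3, and over all alternatives the limma adjusted p reached 0.103 for Nid2 and 0.138 for Col15a1.

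Type VI collagen forms beaded filaments between cells and the fibrillar matrix. The chains Col6a1, Col6a2 and Col6a3 did not pass, at log2 fold changes of -0.36, -0.23 and -0.37, although the first 2 had the groups apart. The chains Col6a4, Col6a5 and Col6a6, which can take the place of Col6a3, all fell. They are not all rarer than it: per kb of exon, Col6a4 was at 264 in labelled knockout and 473 in wild type, and Col6a3 at 207 in labelled knockout and 263 in wild type (means of normalised counts). They are encoded side by side on the minus strand of chromosome 9, Col6a6 from 105687809 to 105828160, Col6a5 from 105856078 to 105960643 and Col6a4 from 105989454 to 106096783. Col6a4, which is a pseudogene in humans, had 2002, 2080 and 1764 normalised counts in labelled knockout, against 4006, 3754 and 2696 in wild type (-0.82 ± 0.19, limma adjusted p = 0.0436). Col6a5 had 158, 231 and 262 in labelled knockout, against 726, 816 and 656 in wild type (-1.78 ± 0.22, limma adjusted p = 0.0121). Col6a6 had 1, 1 and 1 in labelled knockout, against 48, 30 and 18 in wild type (-3.94 ± 0.45, limma adjusted p = 0.0109). Each of the 3 had its groups apart. Col6a6 passed the filter only through wild type and so had to differ, and its log2 fold change depends on the pseudocount, at -4.33 with 0.5 and -2.54 with 5. Col6a4 lost its call without wild type 1, wild type 2, labelled knockout 2 or labelled knockout 3, with no filter on low values, with no intensity trend and with sex as a covariate (limma adjusted p up to 0.193). Col6a5 lost it without wild type 1 or wild type 2, and Col6a6 without wild type 1, wild type 2 or labelled knockout 3 (up to 0.0817 for both). The 250 bases before the start of Col6a5, the member of this cluster whose upstream window is clear of annotated exons, held 1 GC box, in capitals.
Col6a5 (chr9:105960644-105960893, minus strand): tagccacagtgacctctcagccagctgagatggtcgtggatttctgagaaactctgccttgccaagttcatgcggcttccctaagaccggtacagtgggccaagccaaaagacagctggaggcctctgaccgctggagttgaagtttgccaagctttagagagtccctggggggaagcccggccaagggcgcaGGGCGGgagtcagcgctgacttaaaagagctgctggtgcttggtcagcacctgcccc

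The remaining members were mostly lower without passing. Col23a1, a transmembrane collagen, had 181, 160 and 154 normalised counts in labelled knockout, against 320, 366 and 264 in wild type, and fell (-0.93 ± 0.17, limma adjusted p = 0.0277). Its call was lost without wild type 1, wild type 2, labelled knockout 2 or labelled knockout 3 (limma adjusted p up to 0.147). Col8a2, a short-chain network collagen, had 4, 18 and 17 in labelled knockout, against 48, 41 and 56 in wild type. The groups were apart and the limma adjusted p was 0.0601. This gene passed with a pseudocount of 5, with limma-voom weights and with sex as a covariate. It also passed without labelled knockout 1 and without both libraries that stood apart. Among the collagens that sit on the surface of fibrils, Col14a1 had 152, 457 and 377 in labelled knockout, against 698, 573 and 583 in wild type (-1.05 ± 0.39, limma adjusted p = 0.130). Labelled knockout 1 was lowest there by more than 2-fold. Col12a1 had 788, 1140 and 1139 in labelled knockout, against 897, 728 and 719 in wild type, with overlapping groups. Fn1, the fibronectin gene, had 2273, 3671 and 3550 in labelled knockout, against 5018, 3928 and 3567 in wild type (-0.42 ± 0.23, limma adjusted p = 0.272). Col7a1, which forms the anchoring fibrils below hemidesmosomes, averaged 137 ± 40.9 in labelled knockout and 139 ± 18.4 in wild type (SD, n = 3 each). Col17a1, a hemidesmosome collagen, was at 5 to 14 in labelled knockout and 12 to 25 in wild type. The members too low to be tested were Col2a1, Col9a1, Col10a1, Col19a1 and Col25a1, none of them above 13 in any library.

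The make-up of some families differed between the groups, which describes genes already given. The share of Nid2 in both nidogens overlapped, at 53.2%, 34.9% and 35.8% in labelled knockout 1 to 3, against 45.7%, 45.1% and 50.7% in wild type 1 to 3. So did that of Col1a1, Col1a2 and Col3a1 together in the fibrillar collagens, at 90.7% ± 0.76 in labelled knockout and 91.8% ± 0.67 in wild type (SD, n = 3 each). Per kb, Col4a3 to Col4a6 made up 1.30%, 1.48% and 1.15% of type IV transcripts in labelled knockout 1 to 3, against 3.21%, 4.06% and 3.37% in wild type 1 to 3. Col6a4 to Col6a6 made up 12.3% ± 1.33 of type VI in labelled knockout and 17.8% ± 2.50 in wild type (SD, n = 3 each). Lama1 made up 7.51% ± 0.91 of the laminin alpha chains in labelled knockout and 2.23% ± 0.18 in wild type. Lamb3 made up 17.5% to 40.0% of the beta chains in labelled knockout and 2.55% to 9.66% in wild type. The 4 shares from type IV to Lamb3 did not overlap between the groups, and all shares are free of the scaling between libraries. The sum of normalised counts over a class overlapped for the fibrillar genes (43545 ± 10075 in labelled knockout and 51722 ± 10469 in wild type) and for the basement membrane genes (49609 ± 5191 and 53488 ± 5715). For the other genes it was 19882 ± 1866 in labelled knockout and 26170 ± 3527 in wild type, with the libraries apart (SD, n = 3 each).

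**Figure D5:**
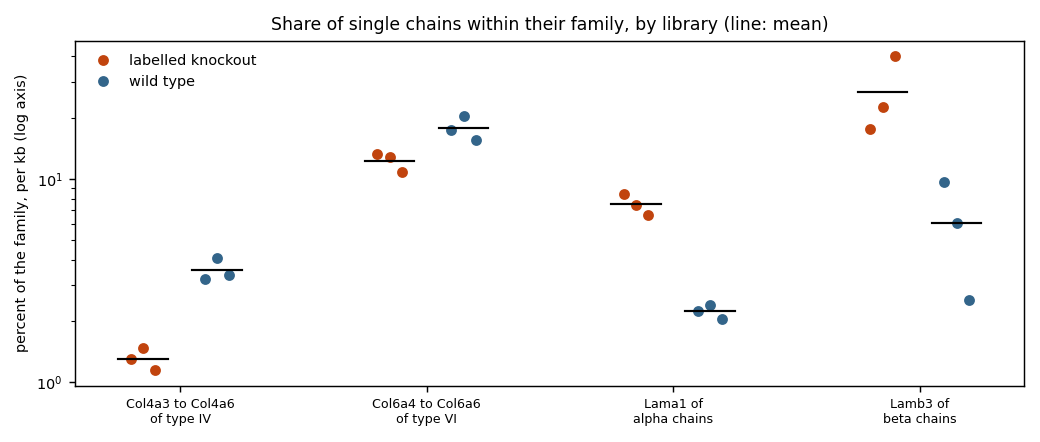
Share of single chains within their family in each library (points, with the mean as a line), as percent of the family's normalised counts per kb on a log axis. In each of the 4 shares the 3 labelled knockout libraries lie apart from the 3 wild type libraries, lower for Col4a3 to Col4a6 and Col6a4 to Col6a6, and higher for Lama1 and Lamb3.

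Genes that make, bind or degrade this matrix were read in fixed lists, which held 15 calls in all. Of all genes tested 8.79% were called in either direction. Whether the lists differ in their share of calls was not tested. Among 29 tested genes of collagen processing (hydroxylases, chaperones, propeptide proteases and crosslinking oxidases) 1 fell, Colgalt2, a collagen galactosyltransferase (17, 18 and 21 normalised counts in labelled knockout, against 34, 51 and 42 in wild type), and none rose. Among 25 matrix proteases and inhibitors 4 rose and 2 fell. Mmp3, the protease stromelysin, had 139, 66 and 91 in labelled knockout, against 1, 5 and 1 in wild type (log2 fold change 5.05 ± 0.53 SE, limma adjusted p = 0.00881). It passed the filter only through the libraries labelled knockout and so had to differ, and with wild type near 0 the fold depends on the pseudocount. Its relative Mmp10 had 936, 605 and 932 in labelled knockout, against 235, 217 and 170 in wild type (1.97 ± 0.22), and the plasminogen activator gene Plau had 537, 381 and 472 in labelled knockout, against 181, 240 and 191 in wild type (1.18 ± 0.19). Mmp25, a membrane-bound protease of leukocytes, fell by 2.45 on the log2 scale. The background shares for these lists are those given for the members, 4.85% higher and 3.94% lower.

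Of 24 integrins and other matrix receptors, Itga8, an integrin chain of mesenchyme and smooth muscle, fell (17, 51 and 23 normalised counts in labelled knockout, against 136, 181 and 113 in wild type). Bcam, a receptor of laminins with the Lama5 chain, fell by 0.74 and Sdc1, an epithelial heparan sulfate proteoglycan, rose by 0.86 on the log2 scale. Of 24 partners of the basement membrane, Smoc1, a calcium-binding matrix protein, had 392, 268 and 354 in labelled knockout, against 118, 90 and 85 in wild type and rose. Egflam (pikachurin, a ligand of dystroglycan) fell by 0.90 and Ltbp1, which stores latent TGF-beta in the matrix, by 1.11 on the log2 scale. Aspn was the sole call among 24 proteoglycans and other interstitial proteins (log2 fold change -1.01), and Smad7, an inhibitor of TGF-beta signalling, the sole one among 19 genes of that pathway (-0.74). The medians of the 6 lists ran from -0.47, for the basement membrane partners, to 0.38, for the proteases.

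Markers of cell types in the gut wall were read beside the matrix genes. In bulk tissue, fewer cells of a type and less RNA per cell cannot be told apart. Of all 14686 genes tested, 7479 had a negative fold change, 3.94% were called lower and 4.85% higher. All 12 vessel endothelium markers had negative fold changes and 3 fell (Cdh5, Pecam1 and Kdr), and their sum was 6576 to 9492 normalised counts in labelled knockout and 10038 to 12021 in wild type. Of 12 smooth muscle markers 11 were negative and none passed, with sums of 33965 to 50008 in labelled knockout and 49032 to 65543 in wild type. Of 11 fibroblast markers none passed, and their sums overlapped (7613 to 10761 in labelled knockout and 9191 to 9994 in wild type). Of 5 pericyte markers tested Cspg4 fell, with sums of 2748 to 3994 and 3755 to 4574 in labelled knockout and wild type. Of 10 epithelial markers 3 rose (Krt19, Krt8 and Elf3), with sums of 186538 to 236301 in labelled knockout and 122434 to 152921 in wild type. Of 11 enteric neuron and glia markers and of 4 tested mesothelium markers none passed. None of the markers in these lists was at 0 in all libraries. Their part in the results for the matrix genes was not tested. The median log2 fold change of the markers was -0.76 for the endothelium, -0.53 for smooth muscle, -0.46 for neurons and glia, -0.38 for pericytes, -0.04 for mesothelium, -0.03 for fibroblasts and 0.50 for the epithelium.

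Markers of tissues outside the gut wall were also detected. The 9 pancreas markers summed to 7831, 5324 and 275 in labelled knockout 1 to 3, against 45155, 2716 and 2481 in wild type 1 to 3, the highest in wild type 1, which also had the highest value of most matrix genes. None of the 6 tested there passed. Of the skeletal muscle markers Ckm fell (log2 fold change -1.26) and of the cartilage and bone markers Dmp1 rose (3.33), with sums of 186 to 869 and 111 to 136 in labelled knockout, against 207 to 556 and 43 to 145 in wild type. Among the adipocyte markers Adipoq and Lep were at 0 in all libraries and 1 gene, Cidec, was tested. It had 4188, 3748 and 4239 normalised counts in labelled knockout, against 3172, 3251 and 3637 in wild type. Its groups were apart, as were those of 19.8% of all genes tested in this direction, and it did not pass. The list summed to 3751 to 4242 in labelled knockout and 3172 to 3637 in wild type. The part of other tissue in the results was not tested.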

How the data were processed

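Per the labels' protocols, frozen small intestine gave Trizol RNA, from which TruSeq libraries of polyA RNA were built. TopHat2 2.1.0, HTSeq 0.6.0, DESeq2 and the build mm10 are listed, with no order, per the submitters' processing notes. Annotation, strand setting and treatment of multiply matching reads: not given in the sources used. Genes that overlap could therefore share reads. For each gene symbol the authors deposited 1 score. They are whole numbers that are not raw counts, with regular gaps or excesses among low values, and are called normalised counts. The factor per library was estimated from those gaps, which gave the read numbers. In simulation the estimate recovered factors of 0.83 to 1.19 within 0.01, and missed exactly 0.8 and 1.2, where quotients tie in rounding.

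Members, gene lists and tests were chosen with earlier results of these data known. limma 3.58.1 (R 4.3.3) was fitted with genotype as the only term and a trend in mean level, for log2(normalised count + 1) of genes that reached 10 in 3 or more libraries. The two-sided p-values had Benjamini-Hochberg adjustment over all genes and a threshold of 0.05, on 4 residual and 2.99 prior degrees of freedom. Values are on the log2(normalised count + 1) scale, which understates the change of low genes. The script was tested on simulated data, in which fewer genes were changed than were called in the real data. It called 0 of 67 genes changed 1.5-fold, 15 of 67 changed 2-fold and 37 of 66 changed 4-fold. Of 14486 unchanged genes it called 1. A gene that did not pass may therefore still differ. Coordinates and exon lengths are from GENCODE vM21 (GRCm38, the assembly that mm10 names), matched by symbol for all 60 members. Upstream sequences are from RefSeq (GRCm38.p6), which matched 43 of the 60. 1 called member is not reported by name or value here or drawn, though it is in the counts. All other called members are named, and from each context list up to 4 called genes by p-value. The alternatives were pseudocounts of 0.5 and 5, other filters and scalings, no trend, limma-voom weights, the replicate number as a block, each library left out, and labelled knockout 1 and wild type 3 left out together. Sex as a covariate was added after seeing the data.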

Additional observations from a re-analysis of the deposited data

How the results depend on the processing

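The count of 15 members called (13 lower, 2 higher) stayed within 13 to 16 under every pseudocount, filter, scaling, trend and weight tried and with sex as a covariate. Without 1 library the count ran from 1 to 21 (lower 1 to 16, higher 0 to 5), that of all genes from 48 to 3015, against 1291, and that of the context lists from 1 to 32, against 15. Without both wild type 3 and labelled knockout 1 the members called were 22, with 5 higher, all genes called were 3888 and context genes 44. In that setting the groups differ fully in sex, and the sexes and the genotypes cannot be told apart. With sex as a covariate all genes called were 459 and context genes 9. With the replicate block 1 member was called, lower and Col4a3, and 0 higher, beside 64 of all genes and 1 context gene. Deviations of same-numbered libraries from their group means correlated at -0.373, 0.302 and -0.161, and those of the other pairs at -0.438 to 0.412. With 3 libraries per group, these values cannot tell whether the replicate numbers pair the libraries. Over the 22 genes followed, 17 alternatives and 1 added after seeing the data, the sign reversed for Col1a1 alone, whose log2 fold change was 0.19 without wild type 1, 0.12 without labelled knockout 1 and 0.028 without both libraries that stood apart, none of them called. Its range without 1 library was -0.17 to 0.19. The median of all genes tested moved to -0.19 under scaling by library totals, where the members' median was -0.53. Low values limit Col4a4 and Col6a6, which the filter at 50 leaves untested.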
